A study of Rattus norvegicus with 24 samples.

Results

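A group of 74 genes had lower RNA levels in the rat left ventricle 12 weeks after spinal cord transection than after sham surgery, while their levels 1 and 3 days after transection lay near those of sham. The group was chosen by these values. The count table is labelled protein-coding. Counts were scaled to CPM, the count of a gene per 1000000 counts of its library in that table. M was the mean of log2(CPM + 0.5) over the libraries of a group. A gene belongs if its mean CPM over the 24 libraries was at least 2, if M at 12 weeks was at least 0.8 below sham, and if M at 1 day and at 3 days each lay less than 0.4 from sham. Of the 23098 gene IDs of the count table, 11567 reached the mean CPM of 2, and 74 of these (0.64%) met all limits. Without replicate 3 of the 12 week group, 49 of the 74 still met them.

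All tissue came from the free wall of the left ventricle of male Wistar rats, at mid-ventricular level, and was flash frozen. The sham group had the dura opened high in the thoracic spine with the cord left intact, and its tissue was taken 7 days after surgery. The other 3 groups had a spinal cord injury (SCI), a complete cut of the cord in the high thoracic region, with tissue taken 1 day, 3 days or 12 weeks later. Each group has 6 libraries of ribosome-depleted total RNA. The sources used here do not give the rats' ages, and no sham group was collected at 12 weeks, so the effect of the injury and that of the added weeks of age cannot be told apart. The labels leave unsaid whether every library is a rat of its own. If some are not, the p-values below measure a spread that is in part technical.

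Sympathetic nerves drive the heart to beat faster and harder. The neurons that feed them sit in the thoracic cord and receive their drive from the brainstem through tracts that a high thoracic transection cuts. The ventricle is then left with a reduced sympathetic and an intact vagal supply. Bulk RNA of the ventricular wall comes from muscle cells and also from fibroblasts, endothelial cells, mural cells and resident immune cells. In such tissue, fewer cells of a type and less RNA per cell cannot be told apart.

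The count table lists genes by Ensembl ID without names, and the RefSeq gene table used here holds no Ensembl IDs, so no ID of the count table could be matched to a name, those of the 74 genes included. The genes are therefore described as a group and by rank, with no name, role or promoter sequence, and marker genes of cell types could not be read in these libraries. A pair of IDs is printed: the gene with the largest fall and the gene with the highest level.

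In the count table the libraries held between 15002476 and 70340174 counts, and between 16087 and 17782 genes had at least 1 count in a library. One library of the 12 week group and one of the 3 day group were lower over most genes. The median over the 11567 genes of the difference from the sham mean, on the log2(CPM + 0.5) scale, was -0.17 in 12 week replicate 3 and -0.15 in 3 day replicate 1. In the other 22 libraries it lay between -0.05 and 0.13.

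A fall of at least 0.8 at 12 weeks was seen in 194 of the 11567 genes. The 74 are the part of these that stayed near sham at both early times, and the other 120 had already moved by 0.4 or more at 1 or 3 days. Of the 194 genes, 78 were lower by at least 0.4 at 1 day, 80 were lower by as much at 3 days, and 63 of them were lower at both times. In the other direction, 20 genes were higher by at least 0.4 at 1 day and 12 at 3 days. How many of all 11567 genes moved as far was not counted, and the differences at all times share the sham libraries. Nothing is therefore read from these counts about when the falls began. The same limits turned upward, for genes higher at 12 weeks and near sham early, held 57 genes.

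**Figure D1:**
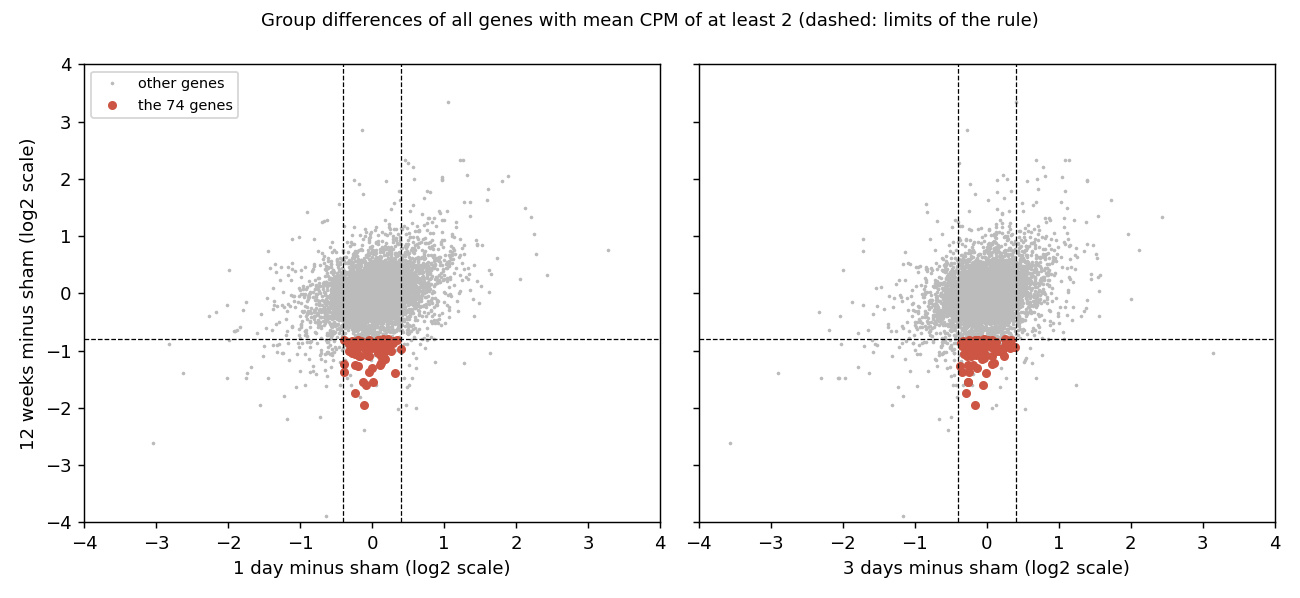
Difference of each gene's group mean from sham on the log2(CPM + 0.5) scale, 12 weeks (vertical axis) against 1 day (left) and 3 days (right), for the 11567 genes with a mean CPM of at least 2. Red points are the 74 genes and dashed lines the limits of the rule. The red points fill the window below -0.8 and between -0.4 and 0.4, and many grey points lie close outside it.

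The limits cut through a continuous range of values. The members nearest to the limit at 12 weeks had differences of -0.80, -0.804 and -0.809, and the nearest genes outside it that met the other limits had -0.799, -0.797 and -0.795. A total of 30 members fell by 0.8 to 0.9, and 47 further genes fell by 0.7 to 0.8 and met the other limits. At 1 day the outermost members stood at -0.397 and 0.397, and the nearest lower gene outside at -0.405. At 3 days the outermost member stood at 0.393 and the nearest gene outside at 0.410. The lowest mean level among members was 2.09 CPM, and the nearest gene outside had 1.997 CPM.

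Among the 74 genes, the difference of M between 12 weeks and sham ran from -1.95 to -0.80, with a median of -0.94. The fall reached 1 in 28 genes and 1.5 in 5 genes. As a ratio of mean CPM, 12 weeks over sham, the members ran from 0.255 to 0.596 with a median of 0.491, so that the typical member stood near 50% of its sham level. Over all 11567 genes the median difference of M was 0.02 at 12 weeks.

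The early values of the 74 genes were spread on both sides of sham within the limits that chose them. The median difference from sham was -0.01 at 1 day and -0.06 at 3 days. In 29 genes both early means were below sham, in 18 both were above, and in 27 they lay on opposite sides. Set directly against the early groups, the difference at 12 weeks ran from -1.84 to -0.42 against 1 day, with quartiles of -1.15 and -0.83, and from -1.79 to -0.49 against 3 days, with quartiles of -1.16 and -0.79. The sham and 3 day libraries carry the numbers 57 to 68, and the libraries of 1 day and 12 weeks carry 77 to 88. The contrast of 12 weeks and 1 day thus lies within 1 run of numbers, whereas 12 weeks and sham have no value within a run. The limits of the rule made every difference between 12 weeks and an early group negative. The contrast within a run is therefore no separate check of the fall. The labels do not say what a run of numbers marks.

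Averaged over the 74 genes, the difference from the sham mean on the log2(CPM + 0.5) scale was lowest at -0.17, in the middle at -0.01 and highest at 0.19 among the sham libraries. The 1 day libraries had -0.16, -0.04 and 0.18 in the same order, and the 3 day libraries -0.37, -0.03 and 0.12. The 12 week libraries had -1.38, -0.99 and -0.74. Every 12 week library thus lay below every library of the other groups, which the choice of the members fixes in large part. The lowest 12 week library was replicate 3 and the highest was replicate 2. The lowest of the 3 day libraries was replicate 1. The lowest library of each of these groups was also the one whose levels were low over most genes, by 0.17 and 0.15, and the part of this in the members' values was not tested.

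**Figure D2:**
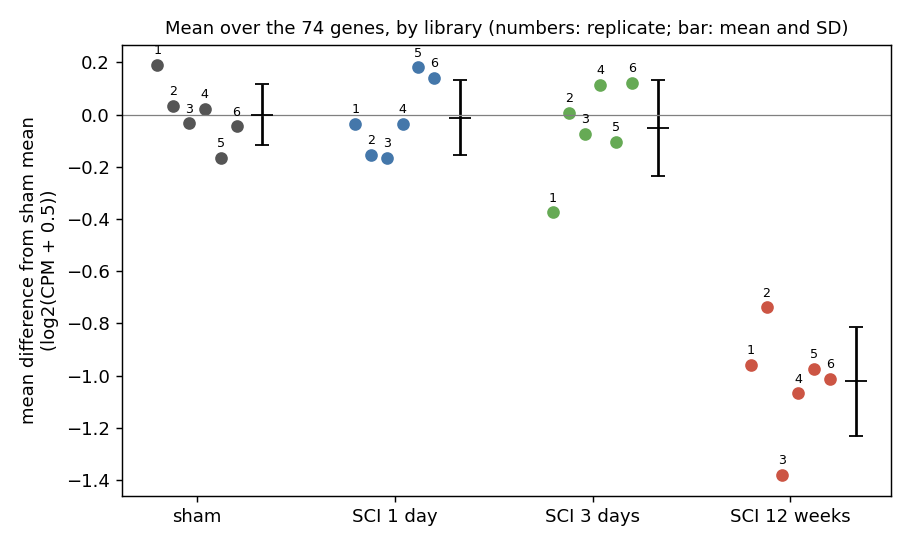
Mean difference from the sham mean over the 74 genes in each library, on the log2(CPM + 0.5) scale, with the replicate number beside each point and the mean and SD of each group (n = 6) as a bar. The 12 week libraries lie between -1.38 and -0.74, and the other 18 libraries between -0.37 and 0.19.

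The 74 genes together took 4366 ± 442 CPM in sham (SD, n = 6), 4600 ± 460 CPM at 1 day, 4337 ± 639 CPM at 3 days and 2185 ± 307 CPM at 12 weeks. The 12 week sum was 0.501 of the sham sum. The libraries ranged from 3975 to 4985 CPM in sham and from 1763 to 2606 CPM at 12 weeks, so the groups did not overlap. The choice of the members fixes this gap and the ratio of the sums in large part. A few genes carried most of this sum: the 4 highest members held 53.8% of it. Levels ran from 2.09 to 745 CPM with a median of 10.5 CPM, against 19.8 CPM over all 11567 genes. A total of 36 members had a mean level under 10 CPM, 30 lay between 10 and 100 CPM, and 8 had 100 CPM or more. No member had a library without counts, and the smallest count of any member in any library was 9.

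Gene by gene, 54 of the 74 had every 12 week library below every sham library. Over all 11567 genes this held for 4.38%, but the rule used the same comparison, so nothing is read from the contrast of these shares. In 28 members all 12 week libraries also lay below all 18 libraries of the other groups, which held for 1.03% of the 11567 genes, again with nothing read from shares that the rule bears on. Of the 20 members whose groups overlapped, 12 did so through a single 12 week library, and in 6 of these 12 it was replicate 2. Each 12 week library had 62 to 71 of the 74 genes below the lowest sham library, with the fewest in replicate 2. This is 83.8 to 95.9% of the members. Over all 11567 genes the share was 50.8% in 12 week replicate 3 and 16.8 to 28.8% in the other libraries of the group. The 1 day libraries had 7 to 21 such members, or 9.46 to 28.4%, where the share over all genes was 21.7 to 32.1%. The 3 day libraries apart from replicate 1 had 5 to 26, or 6.76 to 35.1%, where it was 17.3 to 37.6%. In 3 day replicate 1 there were 47, or 63.5%, where it was 49.3%.

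**Figure D3:**
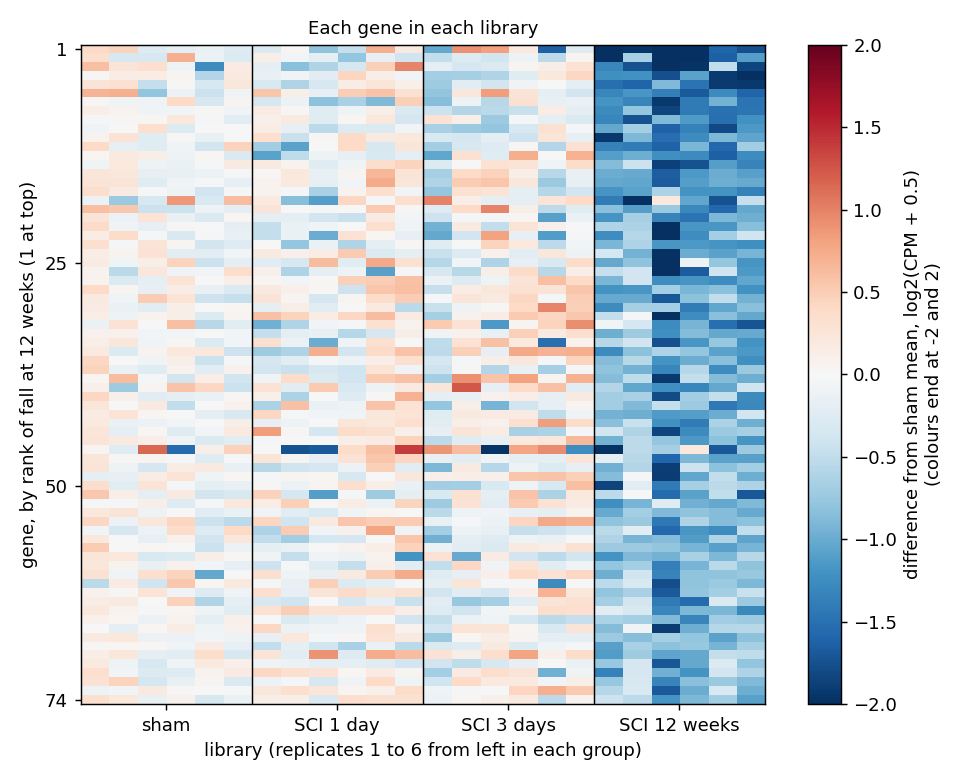
Difference from the sham mean on the log2(CPM + 0.5) scale for each of the 74 genes (rows, ordered by their fall at 12 weeks) in each of the 24 libraries (columns, replicates 1 to 6 from left in each group). Blue marks lower and red higher values, and the colours end at -2 and 2. The 12 week columns are blue almost throughout, darkest in replicate 3, and the gene at rank 46 swings between libraries in every group.

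The largest fall was that of ENSRNOG00000003357. Its level in sham had a lowest value of 373 CPM, a median of 400.5 CPM and a highest value of 611 CPM. At 1 day these were 256, 409 and 730 CPM, and at 3 days 145, 442 and 845 CPM. At 12 weeks they were 89.6, 113 and 146 CPM. The 12 week libraries lay below all sham libraries, with the highest of them just above the lowest 3 day library, replicate 5 of that group. The mean was 457 ± 110 CPM in sham (SD, n = 6), 439 ± 168 CPM at 1 day, 480 ± 290 CPM at 3 days and 117 ± 19.9 CPM at 12 weeks. In edgeR's fit over all genes its log2 fold change at 12 weeks against sham was -1.99 (SE 0.306), and at 1 day and 3 days it was -0.07 and 0.06 (SE 0.295 each). Each SE given here was computed from the test, as the size of the log2 fold change over the square root of its F statistic. The fit shares 1 estimate of spread per gene over all 24 libraries, so an SE does not give the spread of the compared groups alone. On the log2(CPM + 0.5) scale the distance from its lowest to its highest library was 0.71 in sham and again 0.71 at 12 weeks, against 1.51 at 1 day and 2.54 at 3 days.

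The gene with the highest level was ENSRNOG00000012840, whose fall ranked 67 of 74. Its lowest, median and highest values in sham were 773, 793 and 972 CPM. At 1 day they were 746, 896 and 1025 CPM, and at 3 days 501, 795 and 923 CPM. At 12 weeks they were 399, 481 and 528 CPM, below all sham and all 1 day libraries. Within the 3 day group only replicate 1 reached down into the 12 week range. The mean was 841 ± 91.9 CPM in sham (SD, n = 6) and 477 ± 44.2 CPM at 12 weeks, and edgeR's log2 fold change was -0.83 (SE 0.111).

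**Figure D4:**
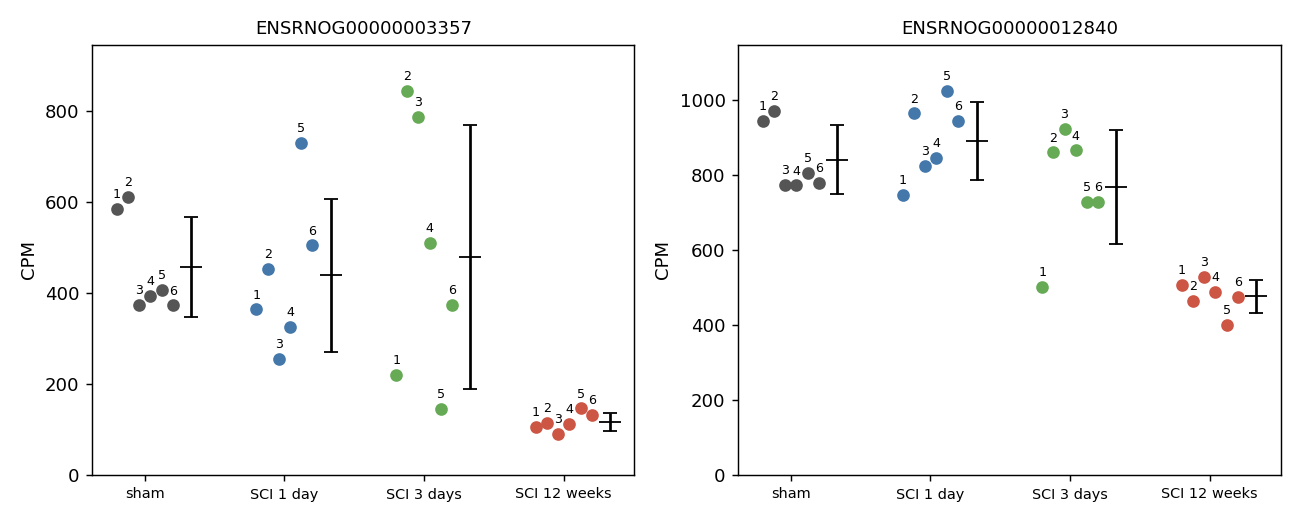
CPM of the gene with the largest fall (left) and of the gene with the highest level (right) in each library, with replicate numbers and the mean and SD of each group (n = 6). At 12 weeks the left gene lies between 89.6 and 146 CPM and the right gene between 399 and 528 CPM, and at 3 days the left gene spreads from 145 to 845 CPM.

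By edgeR's quasi-likelihood test over 15065 genes, which include all 74, 72 of the 74 were called lower at 12 weeks than in sham (Benjamini-Hochberg adjusted p under 0.05), where 10.9% of all tested genes were. The rule used this comparison, so the count describes how the chosen falls compare with the spread between libraries and supports nothing further. The median log2 fold change in this fit was -1.05 for the members and 0.01 for all tested genes. The 2 members not called had mean levels of 3.12 and 9.09 CPM and adjusted p-values of 0.0847 and 0.242. One of them, at rank 46, was the most variable member in sham. Its levels ran from 2.62 to 19.8 CPM in sham, with a median of 9.15 CPM, and at 12 weeks it had a lowest value of 1.80 CPM and a median of 5.11 CPM. These groups overlapped, and its log2 fold change was -0.96 (SE 0.574, edgeR adjusted p = 0.242).

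The direct comparisons with the early groups called 70 members lower at 12 weeks than at 1 day, where 16.1% of all genes tested were, and 72 lower than at 3 days, where 15.3% were. At 1 day against sham, 1 member was called, where 24% of all genes were in either direction. It had a log2 fold change of -0.41 (SE 0.0998, edgeR adjusted p = 0.00389). At 3 days against sham, 1 member was called, where 17.5% of all genes were. It had a log2 fold change of -0.34 (SE 0.109, edgeR adjusted p = 0.0307). Between 3 days and 1 day, 1 member was called, higher at 3 days by 0.41 on the log2 scale (SE 0.0999, edgeR adjusted p = 0.0256), where 2.74% of all genes were called. All of these contrasts were bounded by the rule. The comparisons of each time with sham share the sham libraries.

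The 74 genes had a larger median spread between libraries of a group than all genes had. Their median SD within a group on the log2(CPM + 0.5) scale was 0.24 in sham, 0.28 at 1 day, 0.37 at 3 days and 0.36 at 12 weeks. Over all 11567 genes these medians were 0.12, 0.14, 0.19 and 0.21. The members' lower levels, with a median of 10.5 against 19.8 CPM, go with these values, and their part was not tested. The rule takes no account of spread and so can favour variable genes, a part that was not tested either. The SD at 12 weeks exceeded that of sham in 75.7% of the members and in 80.7% of all 11567 genes.

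Within groups the genes did not move as 1 block. After each group's mean was taken off, the median correlation over the 24 libraries between pairs of members was 0.228 over 2701 pairs, and 76.4% of the pairs were positive. Over all pairs of the 11567 genes the median was 0.158 and 69.1% were positive. These are correlations over libraries that share depth and scaling, and are given as a description. With ENSRNOG00000003357 the correlations ran from -0.38 to 0.96, with 16 of the other 73 genes above 0.5 and 23 below 0.

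The 16 genes and ENSRNOG00000003357 form a set of 17, picked after their values were seen, and that choice in large part fixes its pattern across the 3 day libraries, where ENSRNOG00000003357 had its widest range. Its mean difference from sham was -0.59 in 3 day replicate 1, -0.62 in replicate 5, 0.28 in replicate 2 and 0.39 in replicate 3. The other 57 members had -0.31, 0.05, -0.07 and -0.21 in the same libraries. The median fall at 12 weeks was -0.96 in the set and -0.93 in the rest. No test was made between these sets.

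Replicate 3 of the 12 week group had the lowest value of its group in 38 of the 74 genes (51.4%) and the highest in 10 (13.5%). Over all 11567 genes it was the lowest in 55.8% and the highest in 12.3%. Without this library 54 genes met the rule: 49 of the 74, and 5 others. All of the 25 genes that dropped out did so at the 12 week limit, where their differences moved from a range of -1.01 to -0.80 to one of -0.78 to -0.61. Leaving out a 12 week library cannot move the early differences, so only this limit or the mean CPM could be missed. The 49 that held, a set defined by still meeting the limit, had a median difference of -1.01 with and without replicate 3. Over all 74 the median was -0.87 without this library and -0.94 with it, and the highest difference without it was -0.605. Replicate 2, the highest 12 week library, acted the other way: without it 107 genes met the rule, all of the 74 among them.

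**Figure D5:**
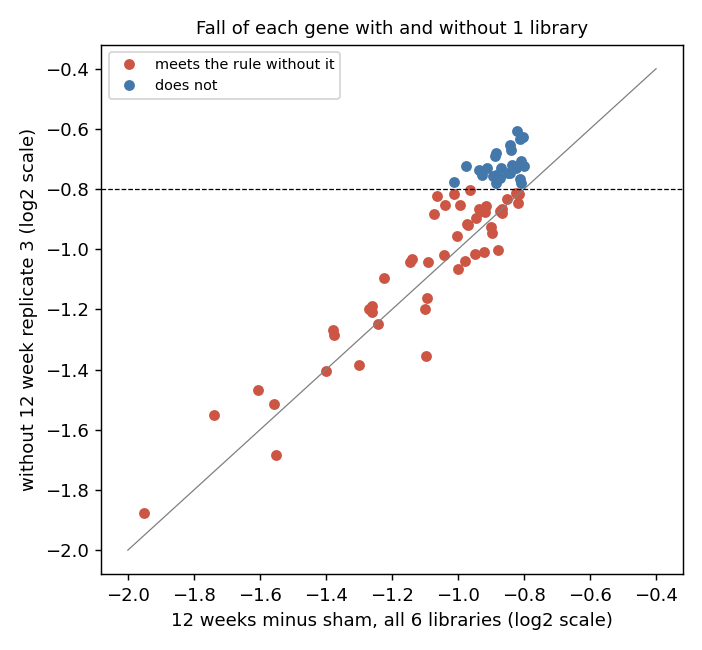
Difference between 12 weeks and sham on the log2(CPM + 0.5) scale for each of the 74 genes, with all 6 libraries of the 12 week group (horizontal axis) and without replicate 3 (vertical axis). The grey line marks equal values and the dashed line the limit of -0.8. The 25 blue points above the dashed line reach up to -0.61, and the 49 red points lie on or below it.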

How the data were processed

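The authors deposited raw counts per gene as 1 table of 24 libraries, labelled protein-coding. Counts outside that table enter neither the depths nor the CPM given here. The submitters' processing notes name build mRatBN7.2 and the tools featureCounts 2.0.6, STAR 2.7.11a and FastQC 0.12.1. For the annotation release, strand setting and handling of reads with several matches nothing is stated in the sources used here, so overlapping genes and near-identical copies may share reads. The table has 26166 lines for 23098 IDs. The lines of the 781 repeated IDs are identical, and each ID was used once. No member is among them.

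CPM were computed in Python 3.11.15 from column sums. Tests over genes used edgeR 4.0.16 in R 4.3.3, with filterByExpr (15065 genes), TMM scaling, 1 term per group and no covariate. In simulated counts for 12 weeks against sham over 14756 genes, the test recovered 51 of 67 genes changed 1.5-fold, 64 of 67 changed 2-fold and 65 of 66 changed 4-fold, with 10 false ones among 190 calls. DESeq2 1.42.0 and limma 3.58.1 served as alternatives. The members, and every list, rule and limit, were chosen with earlier results of these data known. Gene lists, cell type markers, promoter motifs and the naming rule need gene names and were not run. The 2 printed IDs follow the size and level parts of that rule, a restriction made after the values were seen. Over 36 pairs of same-numbered libraries, the deviations from group means correlated between -0.17 and 0.14, with 3 above 0.1. Pairs of unlike number were not computed for reference, so these values do not decide whether same-numbered libraries pair.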

Additional observations from a re-analysis of the deposited data

How the results depend on the processing

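The count of 74 genes depends on where the limits are set. With a fall of at least 1 in place of 0.8 it was 28. It was 79 with TMM-adjusted library sizes (71 of the 74 among them), 78 with DESeq2 size factors (72), 58 with a pseudocount of 1 (53), 83 with one of 0.25 (70), 88 with a mean CPM of at least 1, and 53 both with a mean CPM of at least 5 and with an early limit of 0.3. Leaving out 1 library gave 54 to 107 genes. Of the 74, 72 were called lower at 12 weeks in the edgeR fit, where 10.9% of all tested genes were. When 1 library was left out, 70 to 73 were called. The count was 73 with limma-voom using sample weights. It was 72 with DESeq2, DESeq2 size factors in edgeR, no filter on low counts, only the 12 libraries compared, and the replicate block. The groups of 54 members did not overlap, where this held for 4.38% of all 11567 genes. The count was 57 with either other scaling and 54 to 60 without 1 library. Shares over all genes were taken for the main setting only. The rule used the comparison of 12 weeks and sham, so nothing is read from how little these counts moved. The log2 fold change of ENSRNOG00000003357 stayed between -2.05 and -1.90 and that of ENSRNOG00000012840 between -0.91 and -0.76 over these fits. The list counts planned as a further result were not run, since the IDs carry no names. Depth limits the precision of the lowest members, whose smallest count in a library was 9.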
